A study of Mus musculus with 9 samples.

Results

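The insulin-like growth factor (IGF) genes described here are the ligands Igf1 and Igf2, the receptor Igf1r, and the binding protein genes Igfbp2, Igfbp3, Igfbp4, Igfbp5, Igfbp6 and Igfbp7. They were taken as the probes of a mouse Illumina bead array whose platform gene symbol is one of these 9 names. This gave 9 of the 19405 genes named on the array, with 18 of the 46613 probes analysed. At least 1 probe of each of the 9 genes passed the detection filter (15 probes of 19620), so all 9 genes were tested. A gene with several tested probes is counted by its most intense probe, and the other probes are described beside it.

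The tissue was whole retina of C57BL/6N mice in the oxygen-induced retinopathy model. In this model, high oxygen given to mouse pups arrests the retinal vasculature while it is still forming, so that tissue without vessels becomes hypoxic once the animals breathe room air again. Pups of the hyperoxic and hypoxic groups spent 5 days in 75 ± 2% oxygen with their mothers, starting on postnatal day 7 (P7). Hyperoxic retinas were taken directly afterwards at P12, and hypoxic retinas after 12 hours of room air at P12.5. The control group was normal mice at P12. Each group had 3 arrays, and each array held RNA of the 2 retinas of 1 mouse, so that the 9 arrays stand for 9 mice. A normal group of P12.5 was not among the samples, so hypoxia, 12 hours of age and time of day cannot be told apart in any comparison with P12.5.

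IGF1 and IGF2 act mainly through the tyrosine kinase receptor IGF1R, which signals through insulin receptor substrates, PI3 kinase and AKT. Secreted binding proteins hold most of the ligand, prolong its life and keep it from the receptor until proteases such as PAPPA and PAPPA2 cut them. In the developing retina IGF1 is needed for normal vessel growth, and low IGF1 after preterm birth is a known risk factor for retinopathy of prematurity. In whole retina, fewer cells of a type and less RNA per cell cannot be told apart.

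Levels below are normalized log2 intensities with an added offset, so log2 differences of dim probes are smaller than the true ones. The levels of different probes are not comparable. A probe is called detected on an array where its detection p is under 0.05, and a difference passed where limma's p, adjusted over all 19620 tested probes, was under 0.05. Median intensity was 67.4 to 82.3 on 8 arrays and 163.6 on hyperoxic array 1, which also had the fewest probes detected (30.6%, against 42.1% to 44.5% on the others). The authors' deposited ratios are relative to control 1, hyperoxic 2 and hyperoxic 3, which cross the labelled P12 groups. In the intensity table, the p-values that stand next to the 3 control arrays follow the intensities of these same 3 arrays, and those next to the hyperoxic arrays follow control 2, control 3 and hyperoxic 1. The labels of the P12 arrays are therefore in doubt; they were kept as given, and every comparison of hyperoxic or control retinas is one of the arrays so labelled. The 3 arrays of the ratio reference, called the reference arrays below, also stood apart from the other 3 P12 arrays in vessel markers: the mean log2 level of 9 endothelial genes was 8.01 to 8.09 on them, 7.10 to 7.24 on control 2, control 3 and hyperoxic 1, and 7.27 to 7.29 at P12.5. Results are therefore also given against all 6 P12 arrays and against the reference and the other P12 arrays separately. Between hyperoxic and control as labelled, 0 of 19620 probes passed in limma, with 1873 (9.55%) at an unadjusted p under 0.05; of the 9 members, Igf1 and Igfbp2 (2 genes) were among those.

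Igfbp3 was the member that rose in the hypoxic retina. It was 3.82-fold higher at P12.5 than in the hyperoxic group and 3.29-fold higher than in the control group. The counted probe was tested through the hypoxic group alone, as only there did every array detect it. None of the other 8 members passed in either comparison, in which 1.13% and 1.29% of all probes passed upward. No member was called lower, against 0.566% and 0.601% of all probes. At an unadjusted p under 0.05, 3 members differed from hyperoxic (Igfbp2, Igfbp3 and Igfbp5, all higher) and 1 from control (Igfbp3), beside 18.7% and 20.0% of all probes. The median log2 difference of the 9 members was 0.07 against hyperoxic and 0.02 against control, and that of all tested probes was 0.05 and -0.02.

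**Figure D1:**
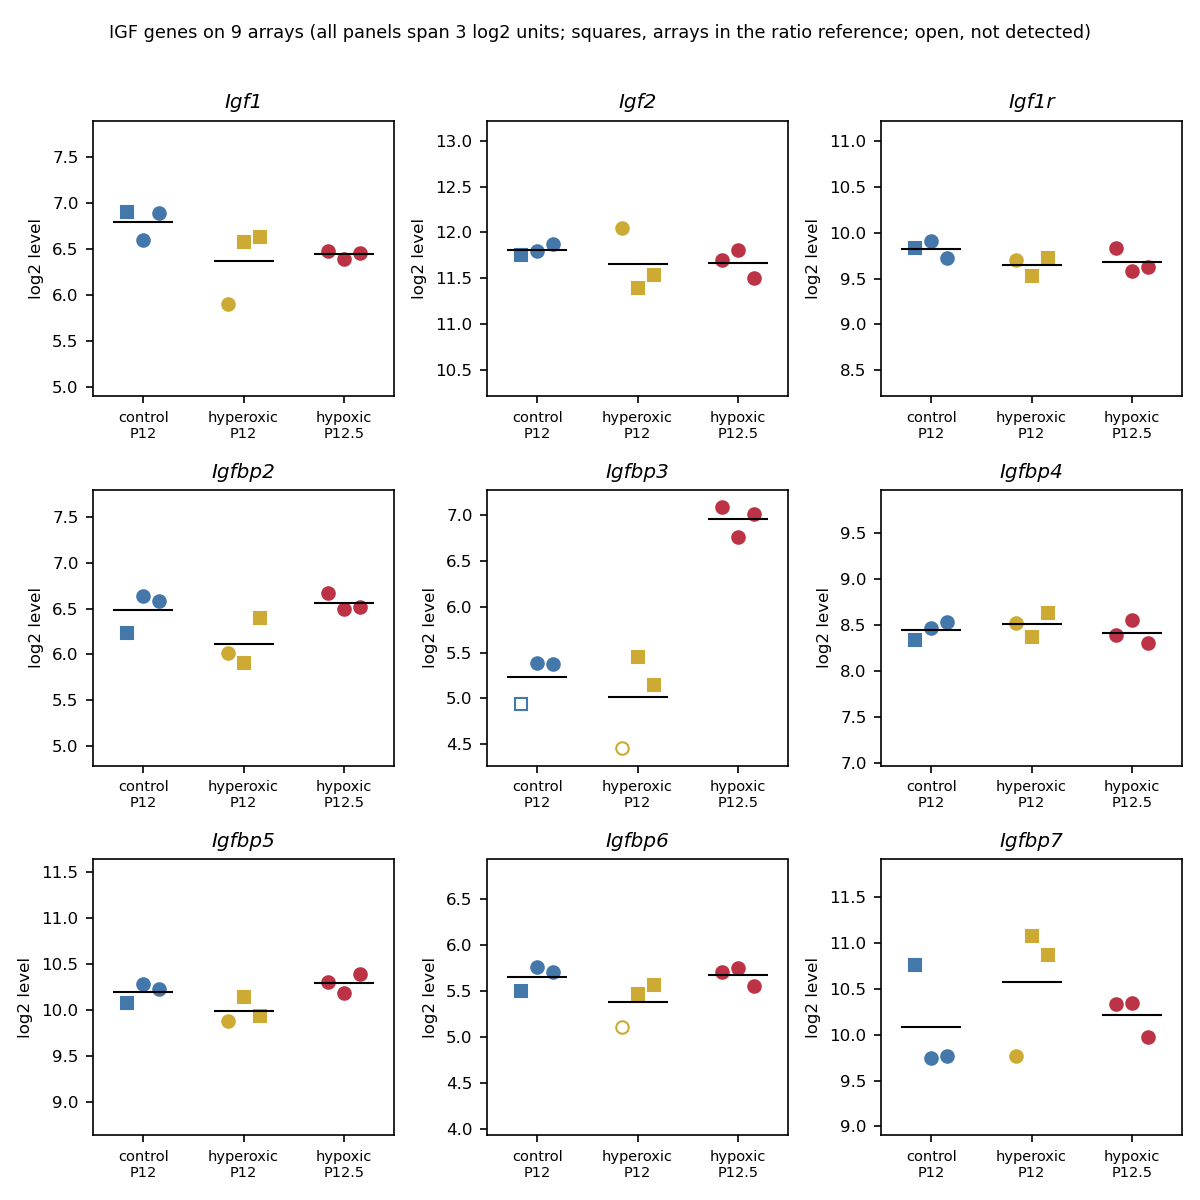
Normalized log2 level (y axis) of the most intense tested probe of each of the 9 IGF genes on the 9 arrays, grouped by label. Bars are group means, squares are the 3 arrays of the deposited ratios' reference, open symbols are arrays where the probe was not detected, and every panel spans 3 log2 units. The 3 P12.5 arrays of Igfbp3 lie at 6.76 to 7.08, above all P12 arrays.

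The ligand Igf1 was detected on all 9 arrays with its brighter probe (3290280). Its log2 level was 6.90, 6.60 and 6.90 on the control arrays, 5.90, 6.58 and 6.63 on the hyperoxic arrays, and 6.48, 6.39 and 6.46 on the hypoxic arrays. The hypoxic arrays all lay below the control arrays, as they did for 20.2% of all probes, and within the range of the hyperoxic ones. The difference was -0.36 ± 0.19 (SE) between hypoxic and control (adjusted p = 0.328) and -0.43 ± 0.19 between hyperoxic and control (adjusted p = 0.522). Without hyperoxic array 1 the latter was -0.19 ± 0.12 (adjusted p = 0.387). Between hypoxic and hyperoxic the difference was 0.07 ± 0.19, with a 95% interval of -0.35 to 0.49, and -0.17 without hyperoxic array 1. The dimmer Igf1 probe (3130377) differed by -0.04 between hypoxic and control and by -0.20 between hyperoxic and control, and did not pass.

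Igf2, the imprinted fetal growth factor, was detected on all arrays. Its level was 11.76, 11.80 and 11.88 in control, 12.04, 11.39 and 11.54 in hyperoxic, and 11.70, 11.81 and 11.50 in hypoxic retinas. The labelled groups overlapped in every comparison. The hypoxic group differed by 0.01 ± 0.17 from hyperoxic (95% interval -0.36 to 0.38) and by -0.14 ± 0.17 from control. The mean of the 3 reference arrays was 0.34 ± 0.13 below that of the other 3 P12 arrays (adjusted p = 0.158), which did not pass. The arrays of these sets did not overlap.

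The receptor Igf1r had 4 probes, which did not move alike. The brightest (107380767) was 9.83, 9.91 and 9.72 in control, 9.71, 9.53 and 9.72 in hyperoxic and 9.83, 9.58 and 9.63 in hypoxic retinas, and its hypoxic arrays overlapped both other groups (difference 0.03 ± 0.12 from hyperoxic and -0.14 ± 0.12 from control). Probe 3360494, the one annotated to the RefSeq mRNA, was 7.82, 7.84 and 7.78 in control, 7.60, 7.30 and 7.52 in hyperoxic, and 7.77, 7.93 and 8.08 in hypoxic retinas. By this probe the hyperoxic group differed by -0.34 ± 0.12 from control without passing (adjusted p = 0.489). The hypoxic group was 0.45 ± 0.12 above hyperoxic, also without passing (adjusted p = 0.0954). The next probe (104280292) was detected on 7 arrays and was tested through the hypoxic group alone. It was higher at P12.5 than on the 3 P12 arrays outside the reference (0.76 ± 0.20, adjusted p = 0.0496). It did not pass against hyperoxic (0.54 ± 0.26, adjusted p = 0.296) or control (0.48 ± 0.26, adjusted p = 0.343). The remaining one was not detected on any array. Which transcripts the 3 detected probes read was not tested, so no single direction is given for the receptor.

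Igfbp3 encodes the main carrier of IGFs in blood, where it forms a complex with the ligand and the acid-labile subunit encoded by Igfals, and it also acts on cells without IGF. Its brighter probe (106350309) stood at 4.94, 5.38 and 5.37 in control retinas, at 4.46, 5.46 and 5.14 in hyperoxic retinas, and at 7.08, 6.76 and 7.01 in hypoxic retinas. Every hypoxic array was above every P12 array, an order that 6.91% of all probes had, and the probe was detected on all 3 hypoxic arrays but on only 2 of 3 in each P12 group (not on control 1 or hyperoxic 1). Before any correction, its intensity was 206.4, 171.5 and 204 on the hypoxic arrays and 69.7 to 98.7 on all P12 arrays but hyperoxic 1. On hyperoxic 1 it was 122, below that array's median intensity of 163.6.

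The difference was 1.93 ± 0.24 from hyperoxic (adjusted p = 0.006), 1.72 ± 0.24 from control (adjusted p = 0.0123) and 1.83 ± 0.20 from all 6 P12 arrays (adjusted p = 0.00164, 3.54-fold). Against all P12 arrays no other member passed; 1.79% of all probes passed upward and 1.45% downward. The rise was about as large against the reference arrays (1.77 ± 0.24, adjusted p = 0.00186) as against the other 3 P12 arrays (1.88 ± 0.24, adjusted p = 0.00482), in which 4.4% and 4.25% of probes passed upward. Without hyperoxic array 1 it was 1.72 ± 0.17 from hyperoxic (adjusted p = 0.000369) and 1.77 ± 0.14 from all P12 arrays (adjusted p = 8.13e-05). The call against control was the least firm: with any of the 6 hypoxic and control arrays left out, the difference stayed at 1.57 to 1.80 while the adjusted p rose to 0.0508 to 0.0869, and with sex as a term it was 1.63 (adjusted p = 0.054). Hyperoxic and control retinas did not differ detectably in Igfbp3 (-0.21 ± 0.24, 95% interval -0.74 to 0.32, adjusted p = 0.754).

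The dimmer Igfbp3 probe (2370500) gave the same direction. Its level was 5.21, 5.17 and 5.06 in control, 4.68, 4.79 and 4.94 in hyperoxic, and 5.85, 5.71 and 6.22 in hypoxic retinas, again without overlap. The hyperoxic arrays were all below detection, so the rise is a bound there, at least 1.52-fold (means 5.93 and 4.80, adjusted p = 0.00657). Against control it was 0.78 ± 0.14 (adjusted p = 0.0319). The retina's own rod genes were detected throughout, 5 of 5 tested on every array. Some marker means moved with the P12.5 group. Those of 5 rod genes (13.74 to 13.80 against 13.84 to 13.95 at P12), 4 ganglion cell genes (10.19 to 10.26 against 10.33 to 10.41), 4 bipolar cell genes (9.76 to 9.97 against 10.06 to 10.27) and 7 pigment epithelium and melanocyte genes (7.13 to 7.48 against 7.53 to 7.86) lay below their P12 range. The mean of 6 lens genes was 7.68 to 9.44 against 5.87 to 8.96 at P12, where hyperoxic array 1 was the highest. The means of Müller glia (9.87 to 9.92 against 9.69 to 10.11) and microglia (6.17 to 6.39 against 5.95 to 6.57) genes stayed within their P12 range. Against hyperoxic, control and all P12 arrays, 1 of 7 Müller glia genes passed downward, beside 0.566%, 0.601% and 1.45% of all probes. The mean of 2 astrocyte genes was 6.21 to 6.39 against 5.80 to 6.38. Of these 2, 1 passed upward against hyperoxic and all P12 arrays, beside 1.13% and 1.79% of all probes. The part of these shifts in the Igfbp3 result was not tested. Of 8 fibroblast and mesenchyme markers, Pdgfra and Mgp were detected on 9 arrays, Ogn on 8 and Dcn on 1, while Col1a1, Col1a2, Col3a1 and Lum were not detected on any array. The mean of the 3 tested ones was 7.26 to 7.35 at P12.5. At P12 it was 7.40 on control 1 and 7.02 to 7.16 on the other arrays, which all lay below the P12.5 arrays. Of these 3 genes, 1 passed upward against the P12 arrays outside the reference, as did 4.25% of all probes, and none passed as labelled. The part of this shift in the Igfbp3 result was not tested either.

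**Figure D2:**
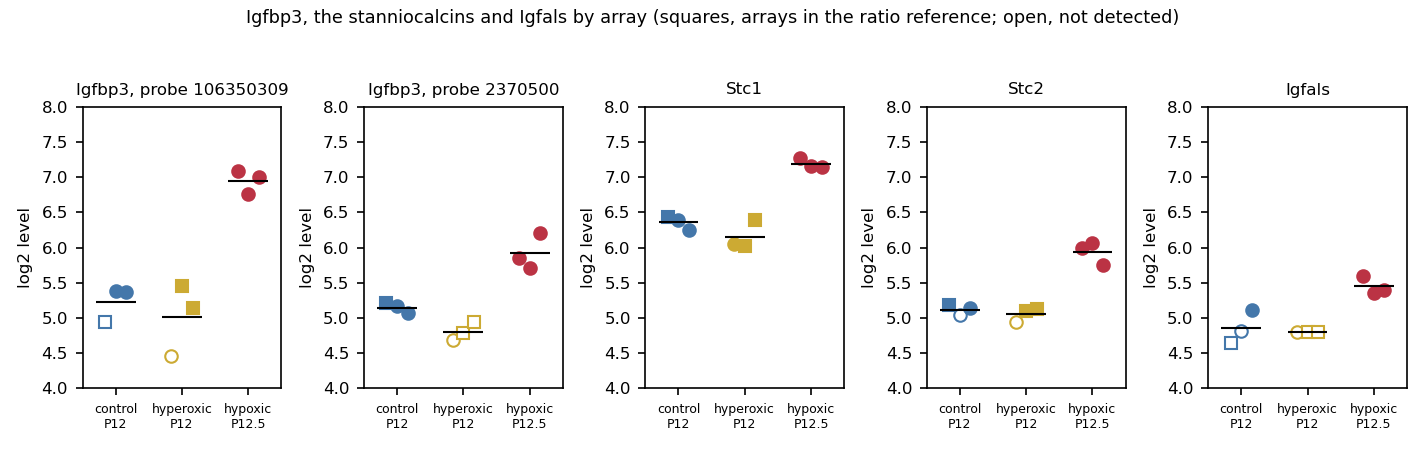
Normalized log2 level (y axis) of both Igfbp3 probes, Stc1, Stc2 and Igfals on each array by labelled group, on 1 common scale. Bars are group means, squares are the reference arrays and open symbols are arrays without detection. In each panel the 3 P12.5 arrays lie above all 6 P12 arrays, an order that 6.91% of all probes had.

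Igfbp3 is on chromosome 11, where Igfbp1 is its neighbour in RefSeq; Igfbp1 was not detected on any array. The promoter of Igfbp3 is shown because it was the called member, that of Stc2 because it rose in the same arrays, and that of Igfbp2 because it holds more of the same motif and its gene did not pass. Each line runs from 250 bases before to 50 after the RefSeq start on GRCm38.p6, on the gene's own strand. Capitals mark the hypoxia response element core, searched as ACGTG and GCGTG on both strands, with overlapping matches counted separately.
Igfbp3, chr11:7213874-7214173, minus strand: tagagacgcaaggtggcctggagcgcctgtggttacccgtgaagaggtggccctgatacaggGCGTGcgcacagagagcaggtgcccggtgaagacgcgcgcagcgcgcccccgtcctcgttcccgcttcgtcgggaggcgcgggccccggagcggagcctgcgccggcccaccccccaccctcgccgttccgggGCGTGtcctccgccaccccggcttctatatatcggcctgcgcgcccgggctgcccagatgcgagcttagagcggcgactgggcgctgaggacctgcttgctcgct
Stc2, chr11:31370012-31370311, minus strand: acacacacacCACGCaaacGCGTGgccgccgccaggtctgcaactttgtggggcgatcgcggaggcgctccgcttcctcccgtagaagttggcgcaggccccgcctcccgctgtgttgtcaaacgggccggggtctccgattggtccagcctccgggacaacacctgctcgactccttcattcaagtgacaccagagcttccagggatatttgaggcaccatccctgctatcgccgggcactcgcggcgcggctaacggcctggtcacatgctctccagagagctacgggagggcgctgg
Igfbp2, chr1:72824230-72824529, plus strand: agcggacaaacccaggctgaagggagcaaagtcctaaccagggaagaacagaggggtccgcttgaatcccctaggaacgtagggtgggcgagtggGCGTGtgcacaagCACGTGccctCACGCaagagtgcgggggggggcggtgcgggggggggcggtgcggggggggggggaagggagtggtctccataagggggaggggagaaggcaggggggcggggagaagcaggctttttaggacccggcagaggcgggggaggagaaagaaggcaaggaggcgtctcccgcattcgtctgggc

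The Igfbp3 window held 2 matches, at -188 and -55 from the start. The Stc2 window also held 2, at -240 on the other strand and at -231 on the printed strand. Igfbp2 has 2 RefSeq windows: the one shown held 4 matches and the other, with a later start, held 1. Of the 4, 2 read the same palindrome from both strands. Of all 32851 such promoter windows, 43.8% held at least 1 match and 20.6% at least 2. Counted by gene, 6 of the 9 members had a match in at least 1 window (Igfbp4, Igfbp5 and Igfbp6 had none). Igf2 had 4 windows and Igfbp2 had 2, so this count by gene is not comparable with the share of single windows. Igf1r had 3 matches and Igfbp7 had 2, each in 1 window, and the counted probe of neither gene passed as labelled. Igfals, which was higher at P12.5 than in hyperoxic retinas, had 3 windows with 0 matches. Ddit4, which was higher at P12.5 than in control retinas, had 2 matches in 1 window. These matches describe the letters of the windows, and none was tested for binding.

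Among the other binding proteins, Igfbp2, a carrier that holds both ligands, had levels of 6.24, 6.64 and 6.58 in control, 6.02, 5.91 and 6.40 in hyperoxic, and 6.67, 6.50 and 6.51 in hypoxic retinas. The hypoxic arrays were above all hyperoxic arrays and overlapped the control arrays. The difference from hyperoxic was 0.45 ± 0.16 (95% interval 0.10 to 0.81, adjusted p = 0.168). From control it was 0.08 ± 0.16, and between hyperoxic and control -0.38 ± 0.16 (adjusted p = 0.513).

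Igfbp5 is next to Igfbp2 on chromosome 1 and encodes a matrix-bound carrier that PAPPA and PAPPA2 cut. Its brighter probe (104560022) was 10.07, 10.28 and 10.23 in control, 9.88, 10.14 and 9.93 in hyperoxic, and 10.30, 10.19 and 10.40 in hypoxic retinas. By both probes the hypoxic arrays lay above all hyperoxic arrays, by 0.31 ± 0.12 (adjusted p = 0.203) and 0.24 ± 0.13 (adjusted p = 0.357). With Igfbp2 and Igfbp3, Igfbp5 made up the 3 members of 9 whose hypoxic arrays were all above the hyperoxic ones, an order that 13.2% of all probes had. Against control this held for 1 member, Igfbp3, and for 17.6% of all probes. Over the 9 arrays, which share 1 normalization and these groups, Pearson's r was 0.64 between Igfbp2 and Igfbp5 and 0.77 between Igfbp3 and Igfbp5. Between Igfbp2 and Igfbp3 it was 0.58. The highest r of any pair of members was 0.81, between Igfbp2 and Igfbp6, and that between Igfbp5 and Igfbp6 was 0.68.

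Igfbp6, a carrier with a preference for IGF2, was dim and detected on 8 arrays. Its level was 5.50, 5.76 and 5.70 in control, 5.10, 5.46 and 5.56 in hyperoxic, and 5.71, 5.75 and 5.55 in hypoxic retinas. The groups overlapped, and the lowest value, on hyperoxic array 1, was the one not detected. The hypoxic group was 0.30 ± 0.14 above hyperoxic (adjusted p = 0.295), and 0.17 ± 0.12 above it without that array.

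Igfbp4, whose product is the classic PAPPA substrate, was the steadiest member: its 9 arrays spanned 0.32 log2 units with the brighter probe and 0.39 with the other. Levels were 8.34, 8.47 and 8.54 in control, 8.53, 8.37 and 8.63 in hyperoxic, and 8.39, 8.55 and 8.31 in hypoxic retinas. The groups overlapped throughout. The hypoxic group differed from hyperoxic by -0.09 ± 0.12 (95% interval -0.36 to 0.17) and from control by -0.03 ± 0.12 (95% interval -0.30 to 0.23).

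**Figure D3:**
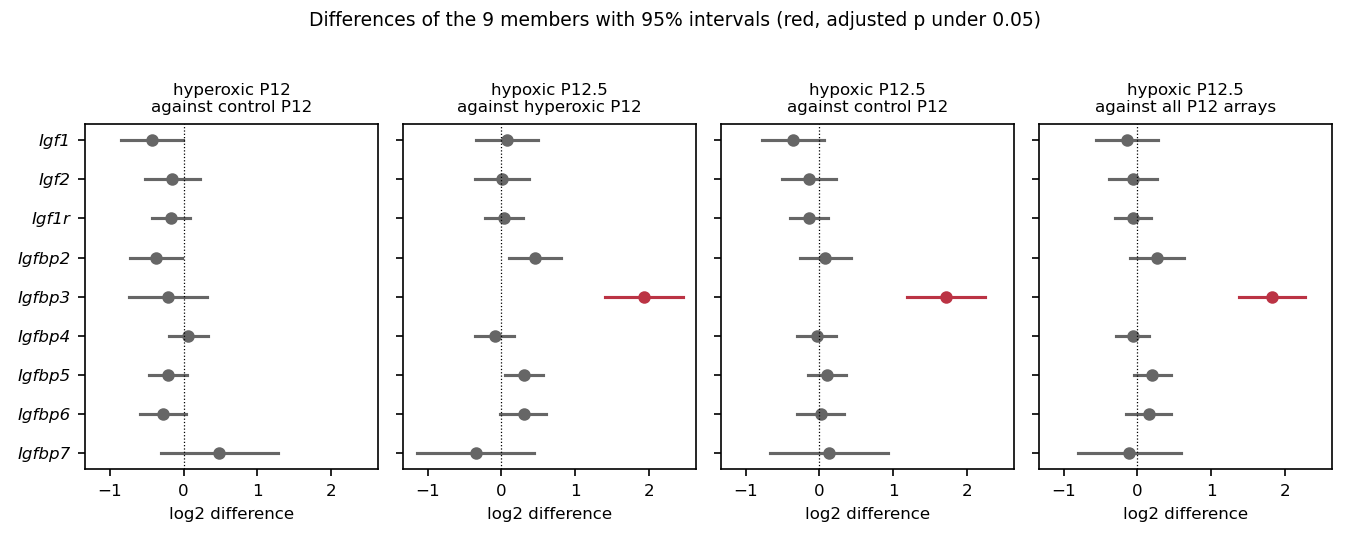
Log2 difference (x axis) of each of the 9 members with its unadjusted 95% interval, in the 4 comparisons. Red marks an adjusted p under 0.05, which Igfbp3 had in the 3 comparisons with P12.5 and no member had between hyperoxic and control.

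Igfbp7 encodes a secreted protein that binds IGF weakly and is known from the walls of blood vessels. Of its 3 probes, only 520411 was detected, on all 9 arrays, so every Igfbp7 value here rests on that probe. Probes 5290152 and 3060110 were not detected on any array. The level of Igfbp7 was 10.76, 9.74 and 9.76 in control, 9.77, 11.07 and 10.87 in hyperoxic, and 10.33, 10.34 and 9.98 in hypoxic retinas. The P12 arrays fell into a high set of 10.76 to 11.07, which were the 3 reference arrays, and a low set of 9.74 to 9.77, with the hypoxic arrays in between. As labelled, no difference passed: it was 0.48 ± 0.36 between hyperoxic and control (adjusted p = 0.647), -0.35 ± 0.36 between hypoxic and hyperoxic (adjusted p = 0.605) and 0.13 ± 0.36 between hypoxic and control (adjusted p = 0.885).

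Against the P12 sets taken separately, Igfbp7 was 1.61-fold lower at P12.5 than on the reference arrays (-0.68 ± 0.13, adjusted p = 0.0101), a comparison in which 4.64% of probes passed downward. It was 0.46 ± 0.13 above the other 3 P12 arrays without passing (adjusted p = 0.0621); there, no member was lower, against 2.02% of probes. Between the P12 sets, the arrays outside the reference were 2.21-fold lower (-1.14 ± 0.13, adjusted p = 0.00187), where 2.41% of probes passed downward and 1.59% upward. No other member passed between these sets.

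Vessel markers moved with Igfbp7 over the P12 arrays. Of 9 tested endothelial genes, 7 were lower outside the reference than in it, among them Pecam1 (-1.48 ± 0.18, adjusted p = 0.00295), Cdh5 (-1.38 ± 0.14, adjusted p = 0.000968) and Emcn (-1.66 ± 0.12, adjusted p = 0.000445). Of 8 tested pericyte and smooth muscle genes 4 were lower, and their mean was 6.97 to 7.06 on the reference arrays, 6.31 to 6.48 on the other P12 arrays and 6.41 to 6.47 at P12.5. Of 11 endothelial markers with a probe, 10 to 11 were detected on each reference array, 5 to 9 on each of the other P12 arrays and 9 on each P12.5 array. The part of vessel content in the Igfbp7 values was not tested. Igf2 ran the other way, with r = -0.68 to Igfbp7 over the 9 arrays and no difference that passed.

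**Figure D4:**
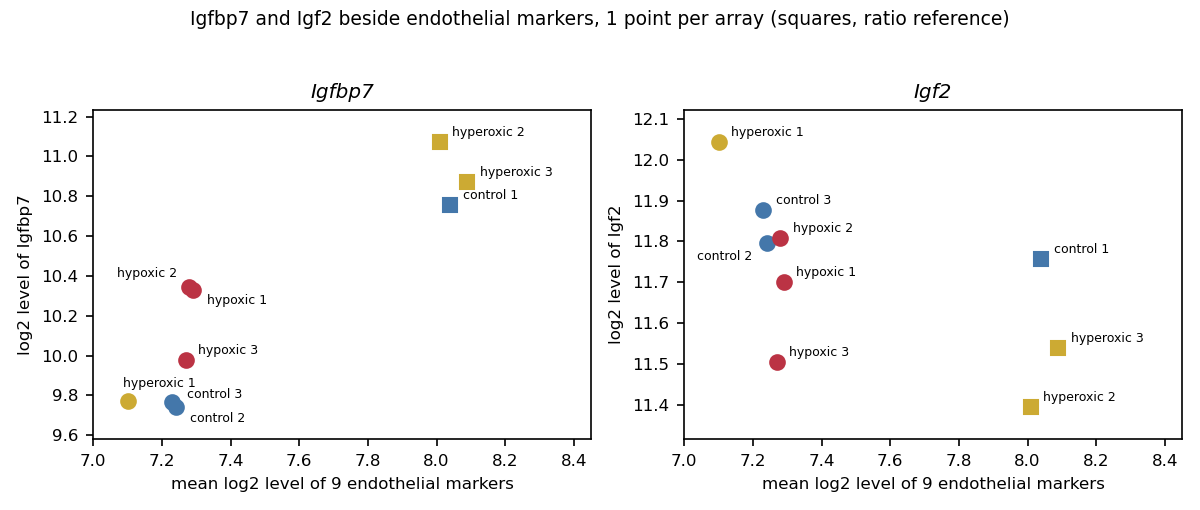
Log2 level of Igfbp7 (left) and Igf2 (right) against the mean log2 level of 9 endothelial markers, with 1 point per array coloured by labelled group and the reference arrays as squares. The reference arrays lie at 8.01 to 8.09 on the x axis, where Igfbp7 is at its highest, and the other 6 arrays at 7.10 to 7.29.

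Of the genes that act on the binding proteins, the stanniocalcins rose together with Igfbp3. Stc1 and Stc2 encode inhibitors of PAPPA and PAPPA2. Against hyperoxic, control and all P12 arrays alike, they were the 2 called of 5 tested genes for pappalysins, their inhibitors and an IGFBP protease. Of all probes, 1.13%, 1.29% and 1.79% passed upward in these comparisons. The list was chosen with earlier results of these data known. Stc1, detected on all arrays, stood at 6.44, 6.40 and 6.25 in control, 6.05, 6.02 and 6.40 in hyperoxic, and 7.28, 7.16 and 7.14 in hypoxic retinas. The hypoxic arrays were above all P12 arrays, an order that 6.91% of all probes had. The differences were 1.04 ± 0.13 from hyperoxic (adjusted p = 0.00606) and 0.83 ± 0.13 from control (adjusted p = 0.0164).

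Stc2 was dimmer, detected on 2 arrays in each P12 group and all 3 hypoxic ones, so this probe was tested through the hypoxic group alone. It was 5.18, 5.04 and 5.14 in control, 4.94, 5.10 and 5.13 in hyperoxic, and 6.00, 6.07 and 5.76 in hypoxic retinas. The hypoxic arrays were again above all P12 arrays, as for 6.91% of all probes. The differences were 0.89 ± 0.12 (adjusted p = 0.00764) and 0.82 ± 0.12 (adjusted p = 0.0135), and 0.92 and 0.83 with its other probe, which passed too. Both genes also passed against the reference arrays (0.91 and 0.81) and against the other P12 arrays (0.97 and 0.91). In these comparisons 4.4% and 4.25% of probes passed upward. The proteases themselves did not pass as labelled: against control, Pappa was at -0.31 ± 0.12 (adjusted p = 0.186) and Pappa2 at 0.44 ± 0.14 (adjusted p = 0.138). Pappa2 passed against the P12 arrays outside the reference (0.49 ± 0.12, adjusted p = 0.0479).

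Igfals, the acid-labile subunit that joins IGFBP3 complexes, was at the edge of detection. Its level was 4.65, 4.81 and 5.12 in control, 4.80 on each hyperoxic array, and 5.60, 5.36 and 5.40 in hypoxic retinas. It was detected on 1 control array, no hyperoxic array and all 3 hypoxic arrays, so it was tested through the hypoxic group alone. It was higher at P12.5 than in hyperoxic retinas by at least 1.1-fold (0.65 ± 0.13, means 5.45 and 4.80, adjusted p = 0.0458) and than on all P12 arrays (0.62 ± 0.11, adjusted p = 0.0201), and did not pass against control (0.59 ± 0.13, adjusted p = 0.0564). Of the 5 other carriers and IGFBP-domain genes listed, Igfbp1, Kazald1 and Esm1 were not detected on any array, and Igfbpl1 did not pass (0.36 ± 0.10 from hyperoxic, adjusted p = 0.0928).

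Among listed genes of receptor signalling, the growth hormone axis, imprinted growth genes and other insulin family receptors, few passed as labelled. None of 14 tested receptor adaptors and PI3 kinase to AKT genes, none of 9 FOXO factors and targets, none of 4 growth hormone axis genes, none of 4 imprinted growth genes and neither Insr nor Igf2r passed in any labelled comparison. Of these 33 genes, 3 to 6 per comparison had an unadjusted p under 0.05 in limma, as did 9.55% to 20.7% of all probes. Of 10 tested MTOR genes, 1 passed: Ddit4, which encodes an inhibitor of MTOR complex 1. Its level was 6.68, 6.62 and 6.62 in control, 6.74, 7.45 and 7.23 in hyperoxic, and 7.58, 7.67 and 7.53 in hypoxic retinas. The hypoxic arrays were above all P12 arrays, an order that 6.91% of all probes had. Ddit4 passed against control (0.95 ± 0.16, adjusted p = 0.0242) and not against hyperoxic (0.45 ± 0.16, adjusted p = 0.181) or all P12 arrays (adjusted p = 0.0683). Between hyperoxic and control the difference was 0.50 ± 0.16 (adjusted p = 0.467).

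Some genes around the ligands differed between the P12 sets. Outside the reference arrays, the imprinted gene Mest was lower (-0.99 ± 0.15, adjusted p = 0.00867), while Cdkn1c, an imprinted cell cycle inhibitor, was higher (0.47 ± 0.11, adjusted p = 0.0383), as was Igf2bp3, which encodes a binding protein of Igf2 mRNA (0.76 ± 0.14, adjusted p = 0.0214). At P12.5, Mest (-0.86, adjusted p = 0.00726), Cdkn1c (0.54, adjusted p = 0.0112) and Igf2bp3 (0.77, adjusted p = 0.00964) also passed against the reference arrays. In that comparison 4.4% of probes passed upward and 4.64% downward. None of these genes passed at P12.5 against the other P12 arrays (0.13, 0.07 and 0.01). Ghr, the growth hormone receptor gene, was lower at P12.5 than on the reference arrays (-0.64 ± 0.12, adjusted p = 0.00807), and it did not pass against the other P12 arrays (-0.24 ± 0.12, adjusted p = 0.225) or between the sets (adjusted p = 0.0805). Grb2, a receptor adaptor gene, and Pik3ip1, listed as a FOXO target, were higher at P12.5 than on the reference arrays (0.40 ± 0.11, adjusted p = 0.0484, and 0.48 ± 0.11, adjusted p = 0.0267). Neither passed against the other P12 arrays (0.17, adjusted p = 0.36, and 0.32, adjusted p = 0.113) or between the sets (adjusted p = 0.242 and 0.429).

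Over the 9 arrays, the 3 of 10509 genes whose levels were most like those of Igfbp3 were Hif1a (Pearson's r = 0.99), St3gal4 (0.987) and Klhl15 (0.985). Hif1a encodes the oxygen-regulated subunit of a hypoxia factor, St3gal4 a sialyltransferase and Klhl15 a substrate adaptor of a ubiquitin ligase. Hif1a had levels of 5.24, 5.52 and 5.72 in control, 4.82, 6.04 and 5.53 in hyperoxic, and 7.24, 6.94 and 7.12 in hypoxic retinas by the 1 tested probe of its 3. These genes were picked for their likeness to Igfbp3, so the order of the groups was fixed by the choice. Over the 6 P12 arrays alone, which were part of that choice, r was 0.94, 0.95 and 0.94. On hyperoxic array 1, Igfbp3, Hif1a, St3gal4 and Klhl15 were all undetected and at their lowest P12 level (4.46, 4.82, 5.67 and 5.04).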

How the data were processed

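The authors' deposited table gives a linear probe intensity per array and, per the file headers, a detection p-value. The ratio table the authors deposited served as an alternative; how its values were scaled is not given. All 81 pairings of p-value and intensity columns were checked: each p-value column followed exactly 1 array, for 5 arrays not the one beside it, and was used with the array it follows. Of 84 sets of 3 arrays, only control 1, hyperoxic 2 and hyperoxic 3 had a median ratio of 1 (tolerance 0.0015) at 100% of probes. Labelling used an Ambion kit, per the labels' protocols; the scanner software was not given in the sources used here.

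Of 46640 probes, 27 were at 0 and left out. Intensities were normalized with neqc (limma 3.58.1, R 4.3.3; normexp background from detection p-values, offset 16, quantile, log2). Testing covered the 19620 probes that every array of 1 group or more detected, two-sided by lmFit and eBayes, all 9 arrays in 1 fit, with Benjamini-Hochberg adjustment at 0.05; the comparison with all P12 arrays used 2 means. The pipeline was tested on simulated data. A bound is against the lowest detected signal of an array. The number of arrays limits the precision.

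The members, gene lists and tests were chosen with earlier results of these data known. The text names all members, the 3 genes most correlated with a called member (Rik, Gm, LOC and clone names left out), and up to 4 called genes per pathway list; proteases, carriers and markers that are named besides these were picked after their values were seen. Alternatives covered normalization, background, offset, the deposited ratios, detection filters and columns, array weights, the replicate block, sex (Xist and a Y-linked gene), the samples in the fit, probe averaging, the P12 grouping and leaving out each array. Promoters are from RefSeq (GRCm38.p6). All 9 members had a window, and Stc1 had none.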

Additional observations from a re-analysis of the deposited data

Results flagged for a closer look

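Over the 6 P12 arrays, the spacing of the extreme value was checked for each of the 15 tested member probes with Dixon's ratio; such a check flags about 1 in 20 groups by chance. Igf1 (probe 3290280) on hyperoxic array 1, at 5.90, was far below the other P12 arrays (ratio 0.682, past the critical value for 6 arrays). This is the array with the high median intensity and the fewest probes detected, and the difference between hyperoxic and control Igf1 went from -0.43 to -0.19 without it. The dimmer Igfbp5 probe (2360592) on control array 3, at 9.64, was far above the other P12 arrays (ratio 0.751). The cause was not tested in either case.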

How the results depend on the processing

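Igfbp3 was higher at P12.5 under every alternative that tested it. Against all P12 arrays it passed in 22 of 22 (1.05 to 2.02, highest adjusted p 0.0295), against hyperoxic in 19 of 20 (1.13 to 2.12) and against control in 12 of 20 (0.97 to 1.93). It was lost with the deposited ratios (1.23, adjusted p = 0.0733 against hyperoxic; 1.08, adjusted p = 0.246 against control). The difference was over 1.5 times smaller without background correction (1.13, 0.97 and 1.05 against hyperoxic, control and all P12 arrays) and with an offset of 50 (1.23, 1.14 and 1.19), both of which shrink dim probes by construction. Median centring moved the median of all probes by 0.31, 0.18 and 0.24 in these comparisons, and Igfbp3 was then at 2.12, 1.93 and 2.02.

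The number of members called (1 in each comparison with P12.5, 0 between hyperoxic and control) was 0 with probes detected on all 9 arrays, a filter that leaves 7 members and removes Igfbp3. It was 0 against hyperoxic and control with the deposited ratios, and 0 against control with sex as a term. With array weights, whose estimate stopped before convergence, it was 4 against hyperoxic, 2 against control and 3 between hyperoxic and control. It was 2 against control with only the compared groups in the fit (Igf1, -0.36, adjusted p = 0.0493), 2 against the reference arrays, and 1 between the P12 sets. Igfbp7 changed direction with that split, to -0.68 from 0.13 (hypoxic and control) and to -1.14 from 0.48 (hyperoxic and control). With each array of the compared groups left out in turn it was always 1 against hyperoxic and all P12 arrays, and always 0 against control and between the P12 groups. Replicate numbers did not pair the arrays (r of deviations -0.34 to 0.11). With the replicate block Igfbp3 stayed called (adjusted p = 0.0187, 0.0464 and 0.00594), while probes called over the array went from 333 to 127 against hyperoxic, from 371 to 42 against control and from 636 to 161 against all P12 arrays.

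Counts over all probes depended on single arrays: 48 to 1943 against hyperoxic and 18 to 53 against control when 1 was left out, and 1943 came without hyperoxic array 1, which also raised the count between hyperoxic and control from 0 to 501. Of 757 member values under alternatives, 679 kept direction and call and 57 changed sign without passing.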
